A study of Homo sapiens with 9 samples.

Results

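Histone genes were examined in RNA sequencing of RKO cells, a human colorectal carcinoma line, and of RKO clones in which the candidate cancer gene DIP2C had been disrupted. The members were the rows of the 9 count files whose symbol began with HIST1H, HIST2H, HIST3H or HIST4H (replication-dependent genes) or with H1F, H2AF or H3F (variant genes). This gave 90 of 23619 rows, of which 73 were replication-dependent and 17 were variant. The replication-dependent rows comprised 6 of H1, 18 of H2A, 20 of H2B, 14 of H3 and 15 of H4. Among the 90 rows, 3 were pseudogenes, 1 was an antisense RNA (H1FX-AS1) and 4 were not found under their symbol in the GENCODE annotation used here.

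Histones package DNA into nucleosomes, each of which holds the core proteins H2A, H2B, H3 and H4, while linker histone H1 binds where DNA enters and leaves. The replication-dependent genes lie in multigene clusters, are transcribed in S phase when newly copied DNA has to be packaged, and give mRNAs that end in a conserved stem-loop in place of a poly(A) tail. Stem-loop binding protein (SLBP) and the U7 small nuclear RNP act on that structure. Most variant histones are made throughout the cell cycle from ordinary polyadenylated mRNAs. Dedicated chaperones place several of them, for example at promoters or in repressed chromatin.

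The study compared 2 samples of parental RKO (RKOparental-1 and RKOparental-2) with 2 DIP2C-/- clones (E3 and C10) and 5 DIP2C+/- clones (H9-A4, F6-A7, G1-A5, A6-C9 and A9-A12). Recombinant adeno-associated virus removed part of an early coding exon of DIP2C, the resistance cassette was taken out with Cre recombinase, and every sample was grown for 48 h before RNA was extracted. Each knockout sample is 1 single-cell clone, whether the 5 DIP2C+/- clones are separate targeting events is not given in the labels, both DIP2C-/- clones were derived from 1 DIP2C+/- clone, and the comparison is with uncloned parental cells, so cloning and loss of DIP2C cannot be told apart. Nothing in the sources says that the 2 parental samples came from separate cultures, so p-values measure only the spread between these samples. Whether the libraries were made by poly(A) selection or by ribosomal RNA depletion is not given in the sources used here.

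Values are given as CPM, the deposited estimated counts of a library scaled to a total of 1000000 after TMM correction of library size. The deposited totals were 14772593 to 21486483 per library, and 3 counts corresponded to 0.14 to 0.203 CPM. DIP2C itself was at 61.0 and 70.9 CPM in the parental samples, at 17.4 in E3 and 22.8 in C10, and at 33.6 to 56.3 in the DIP2C+/- clones, with the highest value in H9-A4. Over all tested genes, H9-A4 also differed more from the other DIP2C+/- clones (root mean square log2 difference 0.841, against 0.578 to 0.62 for the other 4) than from the parental mean (0.609, against 0.773 to 0.839 for the other 6 clones). RKOparental-2 and H9-A4 carried the highest histone values, and the main results that rest on them are also given without them. Of 4 epithelial markers, KRT18 was at 121 to 293 CPM, KRT8 at 7.005 to 21.5, EPCAM at or below 3.78 and KRT19 at or below 0.201, whereas summed fibroblast, leukocyte and endothelial markers did not exceed 5.94, 1.64 and 4.21 CPM in any library.

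The sequence that sets the replication-dependent genes apart was located first, because it also marks which of the members lack it. The stem-loop motif, GGNNC directly followed by TTTTNAG and then by NNCC (N, any base), was searched on the coding strand in the 150 bases after each annotated stop codon, on GRCh37 with GENCODE v44lift37. It was found for 64 of 67 replication-dependent genes (95.5%), against 67 of all 20048 protein-coding genes (0.334%). The 3 windows without it belonged to HIST1H2BI, HIST1H3E and HIST1H4L. Of the variant genes 1 of 15 had the motif (6.67%), and this was H2AFX. In the replication-dependent genes it began 22 to 67 bases after the stop codon (median 36). A gene of each family and 2 further genes are shown 5′ to 3′, with the 16 letters of the motif in capitals and 5 flanking bases on either side. They were chosen because their levels are described later, except HIST1H2AG, which is shown for its uneven stem.
HIST1H1C (H1, chr6:26055967-26055992, minus strand): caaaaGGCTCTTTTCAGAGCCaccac
HIST1H2AJ (H2A, chr6:27782081-27782106, minus strand): acaaaGGCTCTTTTCAGAGCCacttc
HIST1H2AG (H2A, chr6:27101289-27101314, plus strand): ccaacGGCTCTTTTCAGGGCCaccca
HIST1H2BM (H2B, chr6:27783242-27783267, plus strand): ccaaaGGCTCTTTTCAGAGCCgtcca
HIST1H3F (H3, chr6:26250368-26250393, minus strand): ccaaaGGCTCTTTTCAGAGCCaccaa
HIST1H4D (H4, chr6:26188938-26188963, minus strand): ccaacGGCCCTTTTCAGGGCCaccta
H2AFX (variant H2A, chr11:118965603-118965628, minus strand): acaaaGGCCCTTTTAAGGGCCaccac
The first and the last 6 letters of the motif are complementary and flank a loop of 4 letters in 62 of the 64 replication-dependent genes. The stem differed by family. It began with GGCCC in all 13 H4 genes that had the motif and in 0 of the 6 H1, 17 H2A, 15 H2B and 13 H3 genes. H2AFX had the H4 type of stem with a different loop.

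In the promoters, taken from RefSeq on GRCh38.p14 as 250 bases before to 50 after the transcription start, 78 of the 90 members had an entry. TATAAA on either strand was present in 43 of 65 replication-dependent promoters (66.2%) and 4 of 13 variant promoters (30.8%), against 12% of all 27305 promoters. CCAAT on either strand was present in 55 of 65 (84.6%) and 10 of 13 (76.9%), against 35.7% of all promoters. The promoter of HIST1H4D is shown with its TATAAA in capitals, because the level of this gene is described later. It lies at chr6:26189063-26189362 on the minus strand and holds no CCAAT.
HIST1H4D promoter: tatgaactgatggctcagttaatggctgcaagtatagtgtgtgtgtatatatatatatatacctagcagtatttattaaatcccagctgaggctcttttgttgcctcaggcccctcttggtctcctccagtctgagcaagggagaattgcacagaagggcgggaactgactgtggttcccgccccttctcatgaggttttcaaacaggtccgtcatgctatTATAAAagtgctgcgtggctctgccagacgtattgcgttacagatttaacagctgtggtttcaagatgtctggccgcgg

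Summed over the 73 replication-dependent rows, expression was 11686 CPM in RKOparental-1 and 20737 in RKOparental-2. It was 12750 in E3 and 10100 in C10, and among DIP2C+/- clones it reached 13959 in F6-A7, 18020 in H9-A4, 10089 in A9-A12, 12268 in G1-A5 and 10374 in A6-C9. RKOparental-2 and H9-A4 were the highest libraries, RKOparental-1 fell among the clones, and 3 of 7 clones were below both parental samples. Group means were 16212 ± 6401 CPM for parental RKO (SD, n = 2), 11425 ± 1874 for DIP2C-/- (SD, n = 2) and 12942 ± 3241 for DIP2C+/- (SD, n = 5), so the ratios to the parental mean, 0.705 and 0.798, were smaller departures than the 1.78-fold difference between the parental samples. Without RKOparental-2 the same ratios were 0.978 and 1.11. Replication-dependent genes made up 1.01% to 2.07% of the normalised counts. In cell pools of this kind, the share of cells in S phase and the histone mRNA per cell cannot be told apart. Differences in library preparation cannot be separated from them either.

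The 17 variant rows summed to 1643 and 1825 CPM in the parental samples, to 1369 in E3 and 1375 in C10, and to 1461 in F6-A7, 1584 in H9-A4, 1365 in A9-A12, 1586 in G1-A5 and 1417 in A6-C9. Here all 7 clones lay below both parental samples. The separation depends on H2AFX, 1 of the larger rows, which was itself below both parental samples in all 7 clones (as were 5.54% of all tested genes). Not every variant gene was lower, since H2AFY and H3F3B had log2 fold changes of 0.30 and 0.28 in the average of the clones. The mean of the variant sum was 0.792 of the parental mean in DIP2C-/- and 0.855 in DIP2C+/-, and without RKOparental-2 the ratios were 0.835 and 0.903.

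**Figure D1:**
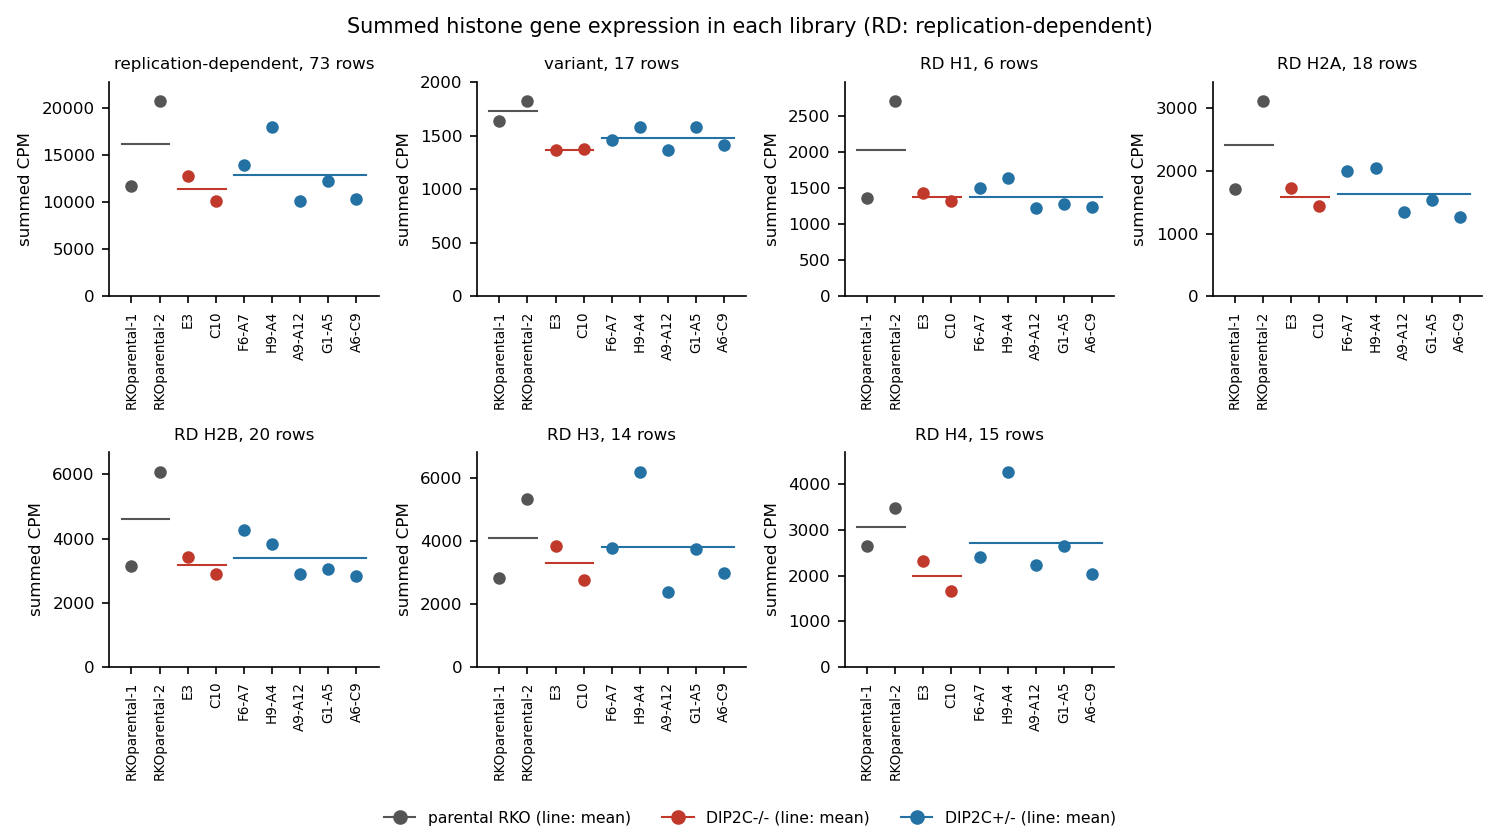
Summed CPM (vertical axes, linear from 0) of the replication-dependent (RD) and variant histone rows and of each replication-dependent family in the 9 libraries (horizontal axes); points are libraries coloured by genotype and lines are group means. RKOparental-2 (20737 CPM) and the DIP2C+/- clone H9-A4 (18020 CPM) stand above the other libraries for the replication-dependent sum, while for the variant sum all 7 clones lie below both parental samples. The variant sum includes H2AFX, which is itself below both parental samples in all 7 clones (as are 5.54% of all tested genes).

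The libraries that were high differed by histone family. The H1 sum was 1367 CPM in RKOparental-1 and 2713 in RKOparental-2, with 1232 to 1638 in the clones. The H2A sum was 1713 and 3105 in the parental samples and 1270 to 2048 in the clones, and the H2B sum was 3138 and 6092 in the parental samples and 2833 to 4281 in the clones. For H1, H2A and H2B, RKOparental-2 was thus above every other library.

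For H3 and H4 the highest library was H9-A4. The H3 sum was 6213 CPM in H9-A4, 5342 in RKOparental-2, 2827 in RKOparental-1 and 2392 to 3838 in the other clones. The H4 sum was 4278 in H9-A4, 3486 in RKOparental-2, 2640 in RKOparental-1 and 1674 to 2644 in the other clones. The ratio of summed H4 to summed H1 CPM, which is not corrected for gene length and is used here only between libraries, was 2.61 in H9-A4 and 1.28 in RKOparental-2, against 1.93 in RKOparental-1 and 1.26 to 2.06 in the other clones. The ratio of summed H3 and H4 to summed H2A and H2B was 1.78 in H9-A4 and 0.96 in RKOparental-2, the highest and the lowest of the 9 libraries.

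Counted by gene, RKOparental-2 had the highest value of the 9 libraries for 34 of the 59 replication-dependent genes kept by the low-count filter, and H9-A4 for 13. By family, RKOparental-2 was highest for 3 of 3 H1, 10 of 15 H2A, 12 of 18 H2B, 5 of 11 H3 and 4 of 12 H4 genes, whereas H9-A4 was highest for 7 of the 12 H4 genes. RKOparental-1 was highest for 0 genes and lowest for 8. The lowest values were most often in A9-A12 (19 genes), C10 (14) and A6-C9 (10). How often each library was highest or lowest over all tested genes is not given here, so these counts are description only.

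Between the parental samples, 57 of 59 replication-dependent genes were higher in RKOparental-2, by a median of 0.83 on the log2 scale, against a median of 0.00 over all 15532 tested genes. At least 2-fold higher values were seen for 21 of 59 (4.28% of all tested genes), and 0 were at least 2-fold lower (3.62% of all). The median log2 difference was 1.24 for H1, 0.79 for H2A, 0.89 for H2B, 0.91 for H3 and 0.48 for H4. The 11 tested variant genes had a median of 0.27, with 7 of 11 higher. These are 2 samples of 1 group, so the difference has no test. Small nucleolar RNA rows (SNORA and SNORD, 362 rows) had a sum in RKOparental-2 of 0.639 of that in RKOparental-1. The 22 S phase genes summed to 4700 CPM in RKOparental-1 and 4308 in RKOparental-2. How either set relates to the histone difference was not tested, and neither was library preparation.

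All 4 genomic clusters had higher sums in RKOparental-2 than in RKOparental-1. The ratio was 1.79 for the 56 HIST1 rows on chromosome 6, 1.66 for the 13 HIST2 rows and 1.77 for the 3 HIST3 rows, both on chromosome 1, and 1.72 for HIST4H4 on chromosome 12. The HIST1 rows held most of the signal, with 10653 and 19017 CPM in the parental samples and 9033 to 16445 in the clones. The 3 HIST3 rows summed to 6.36 CPM in H9-A4, against 13.5 to 31.2 CPM in every other library. Of these HIST3H2BB, an H2B gene, was at 8.45 and 16.9 CPM in the parental samples, 13.2 in E3, 9.06 in C10, 19.3 in F6-A7, 2.34 in H9-A4, 13.8 in A9-A12, 12.7 in G1-A5 and 8.02 in A6-C9.

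Each genotype was then compared with parental RKO by edgeR's quasi-likelihood test on all 9 libraries, with Benjamini-Hochberg adjustment over all 15532 tested genes and an adjusted p under 0.05 taken as a call. Of the members, 70 passed the filter (59 replication-dependent and 11 variant), and the other 20 did not exceed 0.64 CPM in any library. No member was called in DIP2C-/- against parental RKO (0.00644% of all tested genes were called), in DIP2C+/- against parental RKO (0.0966%), in the average of all 7 clones against parental RKO (0.18%) or in DIP2C+/- against DIP2C-/- (0% called). The targeted gene DIP2C was itself not called against parental RKO. Its log2 fold changes were -1.71 in DIP2C-/-, -0.60 in DIP2C+/- and -0.92 in the average. The lack of calls therefore does not show that histone levels were unchanged. An unadjusted p under 0.05 was reached by 16, 17, 19 and 0 of the 70 members, against 12.7%, 11.6%, 13.4% and 5.57% of all tested genes. DESeq2 called 2 members lower in DIP2C-/- (H1F0 and H2AFX; 1.23% of all tested genes were called lower), 0 in DIP2C+/- (1.24% called), 1 lower in the average (HIST1H2AJ; 0.946%) and 0 between the knockout genotypes (0.0386% called). An edgeR fit of the 2 parental and 2 DIP2C-/- libraries alone called 15 of 68 members, all lower (6.82% of 14381 genes were called lower), namely 12 replication-dependent genes and H1F0, H2AFX and H2AFY2. With RKOparental-2 also left out, which leaves 1 parental sample that is assumed to vary like the DIP2C-/- clones, 17 of 69 members were called (13.7% of 15533 genes), 10 of them lower, all among those 15, and 7 higher.

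The fitted differences were mostly below 0 when both parental samples were used. In the average of the clones, 48 of 59 replication-dependent genes were lower than in parental RKO, with a median log2 fold change of -0.47, and 8 of 11 variant genes were lower, with a median of -0.23, whereas the median over all tested genes was 0.02. Without RKOparental-2, when the remaining parental sample is assumed to vary like the other groups, 23 of 59 replication-dependent genes were lower and 36 higher, with a median of 0.07, and 9 of the 12 variant genes then tested were lower, with a median of -0.15. With RKOparental-2 and H9-A4 both left out, 31 of 59 replication-dependent genes were lower with a median of -0.03, and 9 of 13 variant genes were lower with a median of -0.21. The median of the replication-dependent genes therefore changed sign with 1 parental library, and that of the variant rows did not. The variant rows tested differ between these fits and include the antisense RNA H1FX-AS1, the pseudogene H3F3AP4 and the low-count gene H1FOO. By family, the median of the 2 variant H3 rows went from -0.11 with all libraries to 0.17 without RKOparental-2, while those of variant H1 and H2A stayed below 0. No member was called by edgeR in the average in either of these fits (0.0122% and 2.47% of all tested genes were called), with an unadjusted p under 0.05 for 5 of 71 members without RKOparental-2 (5.43% of all tested genes) and for 14 of 72 without both (14.2%).

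Without H9-A4, 13 of 70 members were called in the average of the 6 remaining clones, all of them lower (4.47% of 15390 genes were called lower). They included HIST1H2BB, whose low level is described later, with the variant genes H1F0, H2AFX and H2AFY2 and the replication-dependent genes HIST1H2AJ, HIST1H2BD, HIST1H2BG, HIST1H2BM, HIST1H3A, HIST1H4C, HIST1H4D, HIST1H4J and HIST1H4K. In the same fit 3 members were called in DIP2C-/-, namely H1F0, H2AFX and HIST1H2BM (2.44% of genes called lower), and 5 in DIP2C+/-, namely H2AFY2, HIST1H2AD, HIST1H2AJ, HIST1H2BG and HIST1H4D (3.58% called lower), again all lower. H9-A4 was the DIP2C+/- clone with the highest DIP2C level and the one closest to parental RKO. These calls keep RKOparental-2, which was above RKOparental-1 for 57 of 59 replication-dependent genes. With RKOparental-2 left out as well, median log2 fold changes of the replication-dependent families in the average ranged from -0.117 (H4) to 0.165 (H1). Genes named here only for these calls were chosen after their values were seen.

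**Figure D2:**
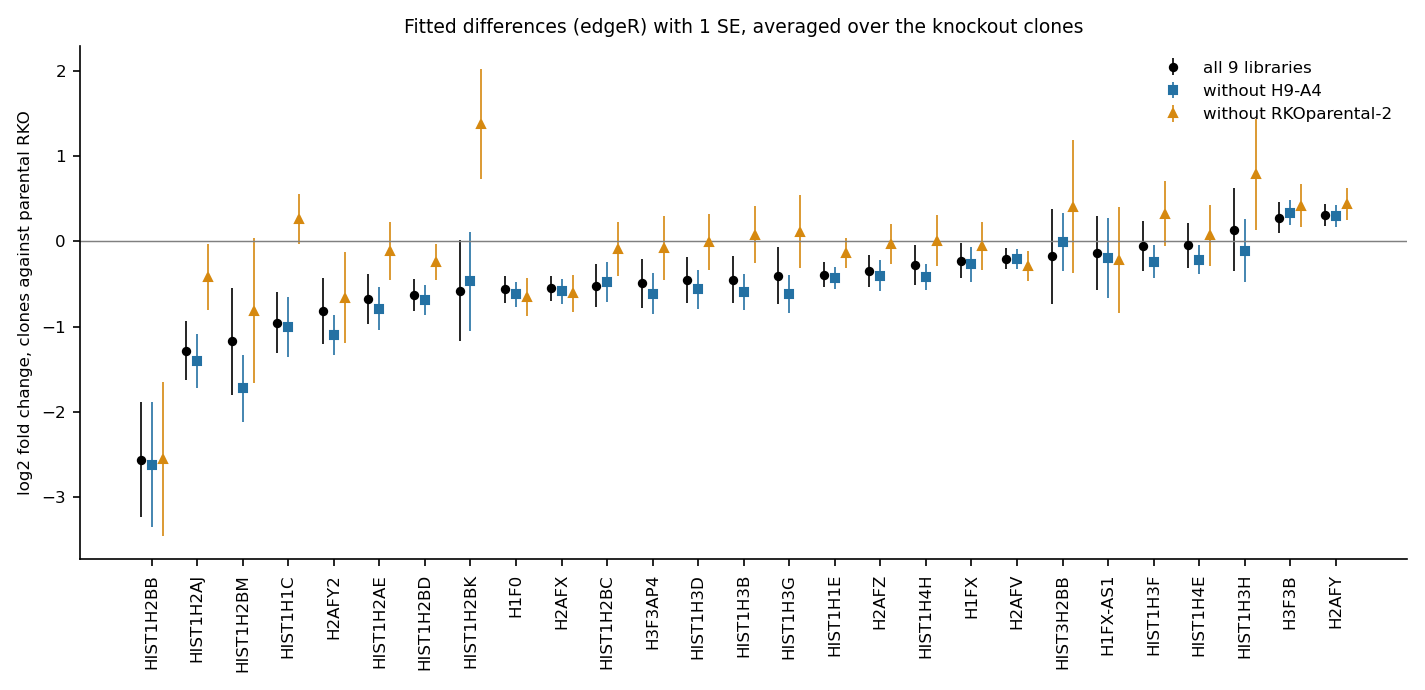
Log2 fold change of the average knockout clone against parental RKO (vertical axis) with 1 SE for the named histone genes (horizontal axis, ordered by the value from all 9 libraries), fitted with all 9 libraries (black circles), without H9-A4 (blue squares) and without RKOparental-2 (orange triangles); the low-count gene H1FOO is left out. H1F0 and H2AFX stay below 0 and H2AFY and H3F3B above 0 in all 3 fits, while HIST1H1C and HIST1H2BK cross 0 when RKOparental-2 is left out. HIST1H2BB, at the far left, is a gene below 1 CPM.

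Of the variant linker histones, H1F0 encodes H1.0, which accumulates in cells that divide slowly or have differentiated. It was at 186 and 164 CPM in the parental samples, 106 in E3, 91.6 in C10, 102 in F6-A7, 146 in H9-A4, 122 in A9-A12, 150.3 in G1-A5 and 114 in A6-C9. All 7 clones were below both parental samples, as for 5.54% of all tested genes. The log2 fold change was -0.56 ± 0.16 (SE) in the average of the clones and did not pass the test (edgeR, adjusted p = 0.267). It was -0.71 to -0.48 over the 17 alternative settings, and -0.62 ± 0.15 when it was called without H9-A4.

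H1FX, which encodes the linker histone H1.10, was at 66.6 and 83.5 CPM in the parental samples, 53.3 in E3, 51.8 in C10, 54.7 in F6-A7, 75.6 in H9-A4, 85.1 in A9-A12, 81.3 in G1-A5 and 50.0 in A6-C9. The clones fell on both sides of the parental values. Its antisense RNA H1FX-AS1 stayed between 0.678 and 1.76 CPM, and because strand-specific counting is not stated, reads of the pair cannot be told apart. The oocyte linker histone gene H1FOO was at 0.873 CPM in F6-A7 and 0.63 in E3 and at or below 0.233 CPM elsewhere, with 0 in RKOparental-1.

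Among the H2A variants, H2AFX encodes H2A.X, which is phosphorylated at DNA breaks. It was at 508 and 464 CPM in the parental samples, 250.3 in E3, 315 in C10, 304 in F6-A7, 386 in H9-A4, 389 in A9-A12, 388 in G1-A5 and 302 in A6-C9. Again all 7 clones were below both parental samples (5.54% of all tested genes). The log2 fold change in the average was -0.55 ± 0.15 (SE), with an adjusted p of 0.254 (edgeR), and it was -0.65 to -0.48 over the alternatives, being called only without H9-A4 in that contrast.

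H2AFY and H2AFY2 encode macroH2A1 and macroH2A2, H2A proteins with a large extra domain that are found in repressed chromatin, and their values moved in opposite directions. H2AFY was at 73.5 and 87.4 CPM in the parental samples, 100.4 in E3, 99.3 in C10, 94.6 in F6-A7, 104 in H9-A4, 111 in A9-A12, 90.0 in G1-A5 and 96.9 in A6-C9, so that all 7 clones were above both parental samples. Its log2 fold change was 0.30 ± 0.13 (SE; edgeR, adjusted p = 0.347), and it was 0.18 without RKOparental-1 and 0.44 without RKOparental-2, the extremes of the 17 alternatives. It was the only member in which all 7 clones were above both parental samples, against 5.41% of all tested genes.

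H2AFY2 was at 40.6 and 49.7 CPM in the parental samples, 20.1 in E3, 21.0 in C10, 23.3 in F6-A7, 55.1 in H9-A4, 12.8 in A9-A12, 20.5 in G1-A5 and 28.5 in A6-C9. H9-A4 was above both parental samples and the other 6 clones were below both. The log2 fold change was -0.82 ± 0.39 (SE; edgeR, adjusted p = 0.394) with all libraries and -1.10 ± 0.23 without H9-A4, when it was called.

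H2AFZ and H2AFV encode the H2A.Z proteins found at promoters. H2AFZ was at 282 and 421 CPM in the parental samples, 273 in E3, 228 in C10, 321 in F6-A7, 333 in H9-A4, 216 in A9-A12, 275 in G1-A5 and 285 in A6-C9, and the clones overlapped RKOparental-1. H2AFV was at 180.0 and 158 CPM in the parental samples, 173 in E3, 163 in C10, 132 in F6-A7, 151 in H9-A4, 125 in A9-A12, 149 in G1-A5 and 139 in A6-C9. The DIP2C-/- clones lay within the parental range of H2AFV and the 5 DIP2C+/- clones below it. Neither gene was called.

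The H3.3 gene H3F3B, whose product is placed in chromatin outside replication, was at 244 and 294 CPM in the parental samples, 339 in E3, 350.0 in C10, 375 in F6-A7, 244 in H9-A4, 268 in A9-A12, 357 in G1-A5 and 348 in A6-C9. Of the clones 5 were above both parental samples, and H9-A4 was at the level of RKOparental-1. Its log2 fold change was 0.28 ± 0.18 (SE; edgeR, adjusted p = 0.525), with a range of 0.14 (without RKOparental-1) to 0.47 (without RKOparental-2 and H9-A4) over the alternatives. The second H3.3 gene could not be read: the row H3F3A was listed below 0.0013 CPM in every library, while the pseudogene row H3F3AP4 was at 35.3 to 101 CPM. Every 100-base stretch of H3F3AP4 is also in another gene (100%), most often H3F3A. Of the stretches of H3F3A, 15.6% are in another gene, most often H3F3AP4. How reads were divided between the 2 rows is therefore uncertain.

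**Figure D3:**
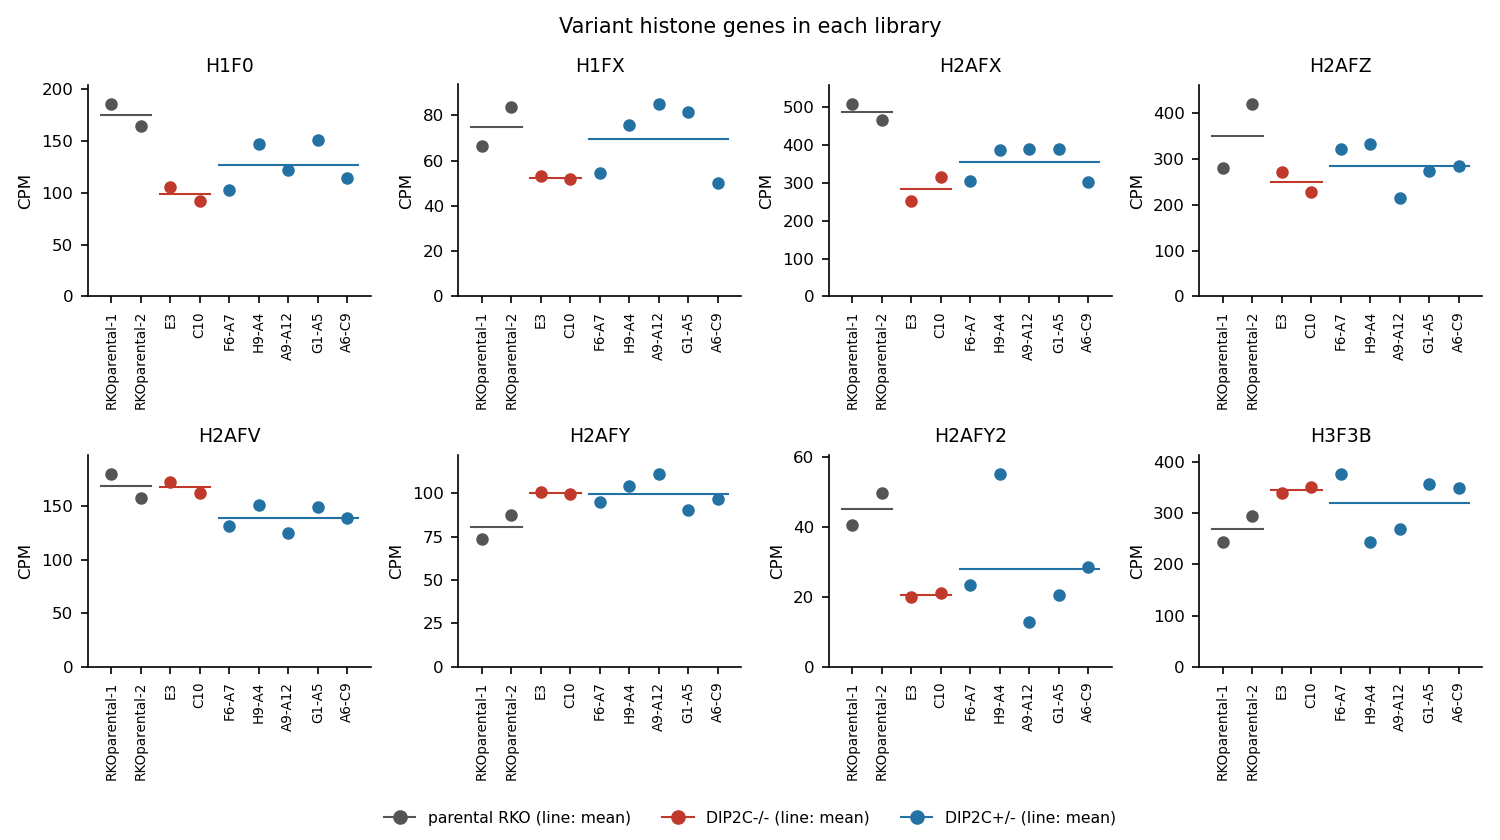
CPM (vertical axes, linear from 0) of 8 variant histone genes in the 9 libraries (horizontal axes); points are libraries coloured by genotype and lines are group means. All 7 clones lie below both parental samples for H1F0 and H2AFX (as for 5.54% of all tested genes) and above both for H2AFY (5.41%). For H2AFY2 the clone H9-A4 (55.1 CPM) is the exception among clones at 12.8 to 28.5 CPM.

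Groups that did not overlap were counted over all members. All 7 clones were below both parental samples for 2 of 11 variant genes (H1F0 and H2AFX) and 2 of 59 replication-dependent genes (HIST1H2AG and HIST1H2BB), against 5.54% of all tested genes. They were above both for 1 variant gene (H2AFY) and 0 replication-dependent genes, against 5.41%. With 11 variant genes tested, these counts are too small to be read as a result about the members. With H9-A4 set aside, the other 6 clones were below both parental samples for 13 of 59 replication-dependent genes (22%) and 3 of 11 variant genes, against 11.5% of all tested genes. HIST1H2BB, an H2B gene, was at 0.81 and 0.815 CPM in the parental samples and at 0 to 0.291 CPM in the clones. A gene that low passes the filter only through the group in which it is high, so its difference is not informative.

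Among the replication-dependent linker histones, HIST1H1C (H1.2) had the widest gap between the parental samples. It was at 261 and 949 CPM in the parental samples, 329.7 in E3, 293 in C10, 414 in F6-A7, 372 in H9-A4, 223 in A9-A12, 296 in G1-A5 and 259 in A6-C9. RKOparental-1 lay within the range of the clones and RKOparental-2 at more than any of them. The log2 fold change was -0.95 ± 0.36 (SE; edgeR, adjusted p = 0.323) with all libraries and 0.26 without RKOparental-2.

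HIST1H1E (H1.4) was at 865 and 1194 CPM in the parental samples, 807 in E3, 772 in C10, 708 in F6-A7, 910.2 in H9-A4, 799 in A9-A12, 748 in G1-A5 and 749.5 in A6-C9. All clones except H9-A4 were below both parental samples. The log2 fold change was -0.39 ± 0.14 (SE; edgeR, adjusted p = 0.321) with all libraries and -0.14 without RKOparental-2.

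Of the H2A genes, HIST1H2AE was at 555 and 1085 CPM in the parental samples, 536 in E3, 376 in C10, 667 in F6-A7, 766 in H9-A4, 429 in A9-A12, 437 in G1-A5 and 398 in A6-C9, and the clones lay on both sides of RKOparental-1. HIST1H2AJ was at 47.4 and 125 CPM in the parental samples, 35.3 in E3, 29.4 in C10, 42.6 in F6-A7, 53.0 in H9-A4, 19.4 in A9-A12, 35.7 in G1-A5 and 33.2 in A6-C9. Its 6 clones other than H9-A4 were below both parental samples, and its log2 fold change was -1.28 ± 0.35 (SE; edgeR, adjusted p = 0.253) with all libraries. Without RKOparental-2 it was -0.42. Of the 100-base stretches of HIST1H2AJ, 61.8% are also in another gene, most often HIST1H2AI, so the division of reads between this pair is uncertain.

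Of the H2B genes, HIST1H2BM had the widest range of those with a mean above 1 CPM, its highest value being 8.33 times its lowest. It was at 39.3 and 61.8 CPM in the parental samples, 12.6 in E3, 10.2 in C10, 35.5 in F6-A7, 76.1 in H9-A4, 11.0 in A9-A12, 15.5 in G1-A5 and 9.14 in A6-C9. F6-A7 was near RKOparental-1, H9-A4 was above both parental samples, and the other 5 clones, both DIP2C-/- clones among them, were at less than all of these. The log2 fold change was -1.17 ± 0.63 (SE; edgeR, adjusted p = 0.443) with all libraries, -1.72 ± 0.39 without H9-A4 and -0.82 ± 0.85 without RKOparental-2.

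HIST1H2BK, another H2B gene, differed most between the parental samples. It was at 25.2 and 170.4 CPM in the parental samples, 89.5 in E3, 103 in C10, 119 in F6-A7, 39.0 in H9-A4, 30.8 in A9-A12, 39.1 in G1-A5 and 53.8 in A6-C9. Every clone lay between the parental samples, and the log2 fold change was -0.58 ± 0.59 (SE) with all libraries and 1.38 without RKOparental-2. HIST1H2BC was at 457 and 772 CPM in the parental samples, 405 in E3, 308.5 in C10, 577 in F6-A7, 348 in H9-A4, 623 in A9-A12, 387 in G1-A5 and 373 in A6-C9. HIST1H2BD was at 449 and 724 CPM in the parental samples and at 319 to 466 CPM in the clones. Both overlapped RKOparental-1.

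Of the H3 genes with a mean above 1 CPM, HIST1H3H had the widest range. It was at 627 and 1346 CPM in the parental samples, 1319 in E3, 787 in C10, 928 in F6-A7, 2073 in H9-A4, 388 in A9-A12, 1147 in G1-A5 and 949 in A6-C9. The 2 DIP2C-/- clones differed from each other, and the DIP2C+/- clones ran from below to above both parental samples, so that the log2 fold change was 0.14 ± 0.49 (SE). HIST1H3F was at 737 and 1183 CPM in the parental samples, 754 in E3, 739 in C10, 1032 in F6-A7, 1619 in H9-A4, 788 in A9-A12, 930.3 in G1-A5 and 646 in A6-C9. HIST1H3B, HIST1H3D and HIST1H3G were at 347 to 785, 301 to 623 and 274 to 719 CPM in the clones, with parental values of 458 and 859, 431 and 743, and 358 and 667 CPM. In all 4 of these genes H9-A4 was the highest clone.

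Of the H4 genes, most of which encode an identical protein, HIST1H4E was at 756 and 885 CPM in the parental samples, 685 in E3, 506 in C10, 644 in F6-A7, 1363 in H9-A4, 837 in A9-A12, 950.0 in G1-A5 and 651 in A6-C9. HIST1H4H was at 341 and 492 CPM in the parental samples, 323 in E3, 252 in C10, 338 in F6-A7, 547 in H9-A4, 305 in A9-A12, 326 in G1-A5 and 329.6 in A6-C9. The clones other than H9-A4 were below both parental samples for HIST1H4H but not for HIST1H4E.

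HIST1H4D, the gene whose stem-loop and promoter were printed, was at 313 and 420.2 CPM in the parental samples, 208 in E3, 161 in C10, 229.8 in F6-A7, 408 in H9-A4, 129.8 in A9-A12, 208 in G1-A5 and 138 in A6-C9. H9-A4 lay between the parental samples, and the other 6 clones were below both. Its log2 fold change was -0.80 ± 0.35 (SE; edgeR, adjusted p = 0.36) with all libraries, -1.03 ± 0.21 without H9-A4 and -0.57 ± 0.47 without RKOparental-2. HIST1H4C was at 401 and 371 CPM in the parental samples, 237 in E3, 197 in C10, 215 in F6-A7, 552 in H9-A4, 261 in A9-A12, 314 in G1-A5 and 172 in A6-C9. It was 1 of 2 replication-dependent genes, with HIST1H4A, that were higher in RKOparental-1 than in RKOparental-2. Of the 100-base stretches of the H4 genes HIST1H4J and HIST1H4K, 90.7% and 91.3% are also in another gene, most often the other of the pair. Their levels of 147 to 449.6 and 72.4 to 200.2 CPM therefore cannot be fully told apart.

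**Figure D4:**
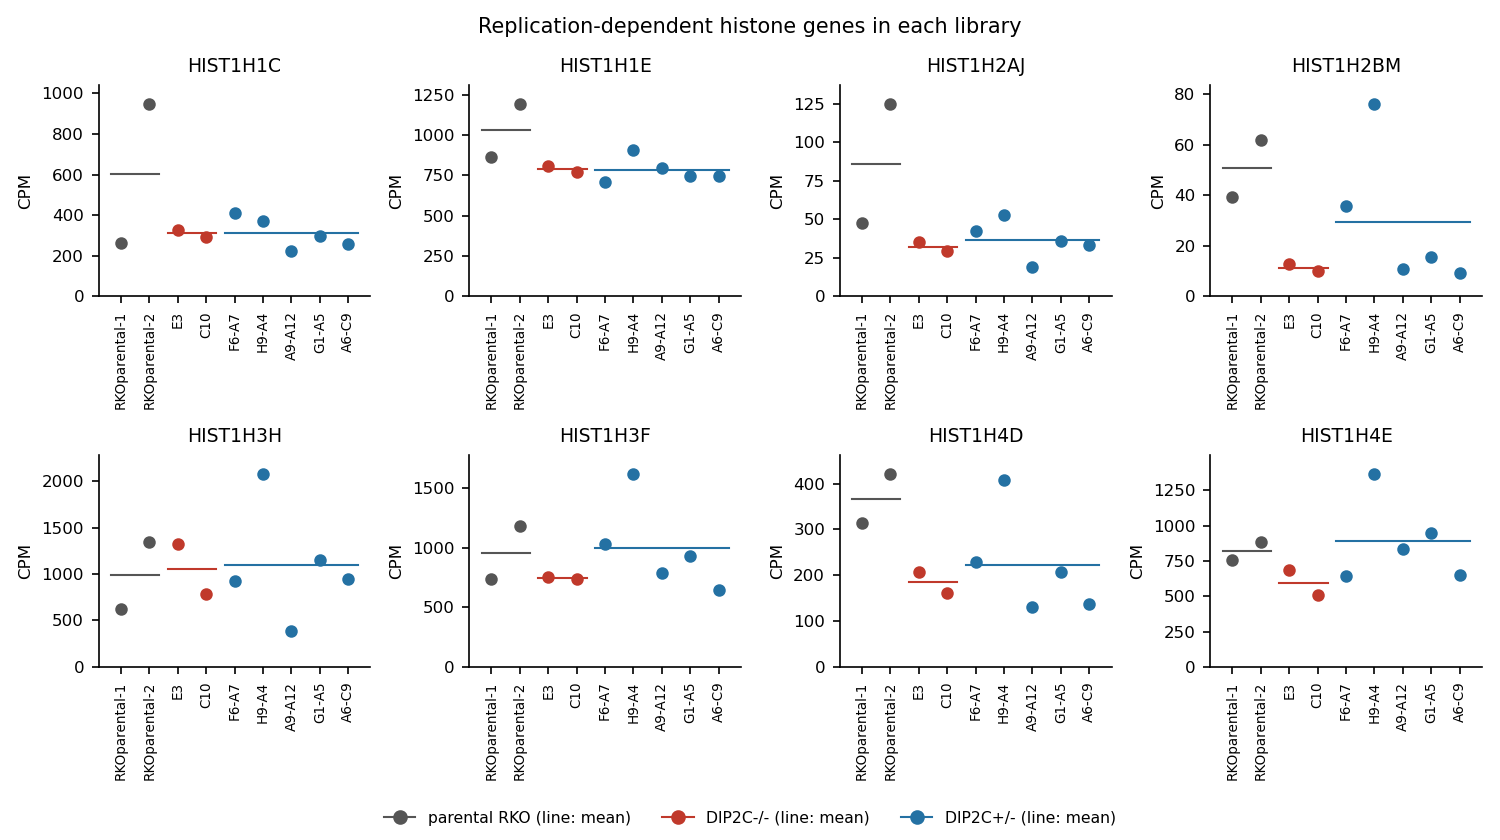
CPM (vertical axes, linear from 0) of 8 replication-dependent histone genes, a pair from each of H1, H3 and H4 and 1 each from H2A and H2B, in the 9 libraries (horizontal axes); points are libraries coloured by genotype and lines are group means. HIST1H1C is high in RKOparental-2 alone (949 CPM), HIST1H3H, HIST1H3F and HIST1H4E are highest in H9-A4, and for HIST1H4D the 6 clones other than H9-A4 lie at 129.8 to 229.8 CPM, below both parental samples.

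Outside the variant genes, the 12 most abundant and the 5 of widest range, 42 replication-dependent genes were tested. Of these 23 had a mean above 100 CPM, 8 one of 10 to 100 CPM and 11 one under 10 CPM. RKOparental-2 was the highest library for 24 and H9-A4 for 7, again without a share over all tested genes. In the average of the clones 32 of these 42 genes had a lower fitted value, with a median log2 fold change of -0.47 and a range of -1.03 to 0.34, and without RKOparental-2 the split was 15 lower and 27 higher with a median of 0.20. Their median changed sign with that library, as it did over all 59 genes.

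Of 3 further genes that were called when H9-A4 was left out, HIST1H2BG, an H2B gene, was at 287 and 494 CPM in the parental samples, 224 in E3, 202 in C10, 266 in F6-A7, 375 in H9-A4, 184 in A9-A12, 158 in G1-A5 and 175 in A6-C9. HIST1H3A, an H3 gene, was at 37.5 and 105 CPM in the parental samples and at 23.1 to 55.0 CPM in the clones, and HIST1H2AD, an H2A gene, at 97.0 and 126 CPM and at 42.4 to 113 CPM. For HIST1H2BG the clones other than H9-A4 were below both parental samples, while the other two overlapped RKOparental-1. HIST4H4, the H4 gene on chromosome 12, was at 135 and 233 CPM in the parental samples and 119 to 237 CPM in the clones. HIST2H2AC, an H2A gene, was at 176 and 251 CPM in the parental samples and 127 to 191 CPM in the clones.

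Other members were duplicated HIST2 genes or were at the limit of detection. HIST2H2AA3 and HIST2H2AA4, HIST2H3A and HIST2H3C, and HIST2H4A and HIST2H4B are near-identical copies on chromosome 1, each row stood between 0.256 and 5.62 CPM, and the division of reads within each pair is uncertain. HIST2H2BE, an H2B gene whose mRNA is also known in a polyadenylated form, was at 209.6 and 373 CPM in the parental samples and 300.1 to 466 CPM in the clones, the highest value being in E3. Of the 14 replication-dependent rows that did not pass the filter, several are known as germ-cell histone genes, such as HIST1H1T (0.0484 to 0.64 CPM), HIST1H2BA (0 to 0.128 CPM) and HIST3H3 (0 to 0.387 CPM). Over all 20 rows that did not pass, 8 were at or under 3 counts in every library and 2 of these, H2AFB1 and H2AFB2, were listed at 0 throughout.

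Each clone was also set against the parental mean without a test, since a single clone has no replicate. At least 2-fold lower values were found for 4 of 59 replication-dependent genes in E3 (5.47% of all tested genes), 13 in C10 (6.23%), 2 in F6-A7 (5.97%), 2 in H9-A4 (4.18%), 18 in A9-A12 (6.55%), 5 in G1-A5 (7.96%) and 12 in A6-C9 (7.84%). At least 2-fold higher values were found for 1 in E3 (8.95%), 0 in C10 (5.7%), 3 in F6-A7 (8.13%), 2 in H9-A4 (3.26%) and 0 in A6-C9 (6.19%), G1-A5 (4.01%) and A9-A12 (7.33%). The median log2 difference of the 59 genes was -0.33 in E3, -0.58 in C10, -0.19 in F6-A7, -0.02 in H9-A4, -0.78 in A9-A12, -0.41 in G1-A5 and -0.64 in A6-C9, against medians from -0.01 to 0.02 over all tested genes. Clones of both genotypes were among the lower and the higher ones. The parental mean is raised by RKOparental-2, and against RKOparental-1 alone these medians were 0.13 in E3, -0.10 in C10, 0.34 in F6-A7, 0.46 in H9-A4, -0.25 in A9-A12, 0.00 in G1-A5 and -0.18 in A6-C9. At least 2-fold lower values were then found for 3 genes in E3 (6.03% of all tested genes), 3 in C10 (7.23%), 1 in F6-A7 (6.78%), 2 in H9-A4 (4.75%), 5 in A9-A12 (7.33%), 2 in G1-A5 (8.81%) and 6 in A6-C9 (8.89%). Against the parental mean, HIST1H2BM was at least 2-fold lower in E3, C10, A9-A12, G1-A5 and A6-C9, and HIST1H2AJ in the same 5 clones. Of the variant genes, H2AFY2 was at least 2-fold below the parental mean in E3, C10, A9-A12 and G1-A5.

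**Figure D5:**
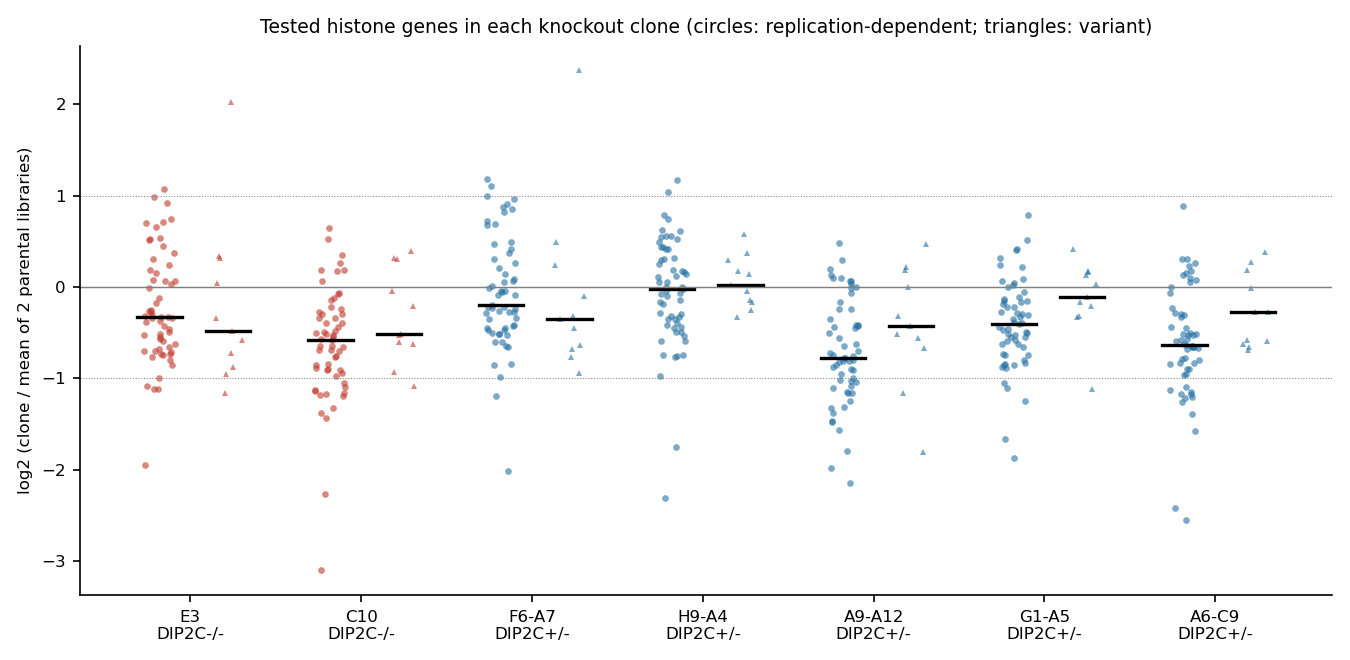
Log2 ratio of each clone to the mean of the 2 parental samples (vertical axis; dotted lines mark 2-fold) for the 59 tested replication-dependent genes (circles) and the 11 tested variant genes (triangles) in the 7 knockout clones (horizontal axis, genotype under the name); black lines are medians. The replication-dependent median is lowest in A9-A12 (-0.78) and nearest 0 in H9-A4 (-0.02); without RKOparental-2 the median fitted difference of these genes over all clones is 0.07.

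Between the knockout genotypes no histone gene was called by edgeR (0 at an unadjusted p under 0.05, 0 by DESeq2), and the smallest adjusted p among the members was 0.878. In DIP2C+/- against DIP2C-/-, 39 of 59 replication-dependent genes had a higher fitted value in DIP2C+/-, with a median log2 difference of 0.11, and without H9-A4 the split was 31 higher and 28 lower with a median of 0.01. For H1F0 the difference was 0.37 ± 0.17 (SE; edgeR, adjusted p = 0.878).

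The genes that make, process and deposit histones were read from lists of their own. Of 13 tested genes for histone mRNA synthesis and 3′ end processing, 0 were called in the average of the clones, with 6 higher, 7 lower and a median log2 fold change of -0.01. The largest values belonged to ERI1, a 3′ exonuclease of the histone stem-loop (0.48 ± 0.26), CPSF3, the cleavage endonuclease (0.39 ± 0.15), LSM11, a subunit of the U7 particle (-0.37 ± 0.32), and SYMPK, a scaffold of the cleavage complex (0.33 ± 0.17; all log2 ± SE). SLBP was at 149.7 and 114 CPM in the parental samples, 199 in E3 and 108 to 133 in the other clones. Its part in the histone differences between libraries was not tested.

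Of 16 tested chaperones that act at replication, 0 were called, with 6 higher, 10 lower and a median of -0.07. The largest log2 fold changes were those of ASF1A, an H3 and H4 chaperone (-0.46 ± 0.32), MMS22L (-0.40 ± 0.21), CHAF1B, a subunit of chromatin assembly factor 1 (-0.35 ± 0.17), and NAP1L1, an H2A and H2B chaperone (-0.29 ± 0.21). Of 11 chaperones and exchange factors of variant histones, 0 were called, with 7 higher and 4 lower and a median of 0.06. Their largest values were those of UBN2 (-0.20 ± 0.15), ATRX (0.16 ± 0.38), VPS72 (0.15 ± 0.13) and CABIN1 (-0.14 ± 0.15).

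Of 22 S phase genes 0 were called, with 4 higher, 18 lower and a median of -0.14. CCNA2, which encodes cyclin A2, had the largest value (-0.66 ± 0.23), followed by the DNA polymerase gene POLA1 (-0.38 ± 0.25), GINS2 (-0.34 ± 0.16) and MCM4 (-0.26 ± 0.16), which encode parts of the replicative helicase. Summed, they were at 3764 to 4069 CPM in 6 clones, below both parental samples, and at 5041 CPM in H9-A4, above both. Without H9-A4, SRRT and CHAF1B, CCNA2 and POLA1 were called lower in the average of the clones, from the processing, replication chaperone and S phase lists. These 4 of 62 tested genes (4.47% of all genes were called lower in that fit) were named after their values were seen, and 0 of the other tested genes of the 4 lists were called in that fit.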

How the data were processed

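Gene expression was measured by RNA sequencing on the Ion Proton system in 9 RKO samples. The authors aligned reads to hg19 with TopHat2 2.0.4 and quantified genes with Cufflinks, version 2.2.1 in the submitters' processing notes. The deposited files hold estimated counts for each gene symbol, which need not be whole, with no replicates pooled. In each file 97.5% to 98% of low values were whole multiples, within 0.02, of 1 step per library, so the counts had been scaled by a constant, and the reads implied were 17134472 to 24863895 per library.

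Estimated counts were rounded and all 9 samples were fitted in edgeR 4.0.16 (R 4.3.3) after filterByExpr (15532 genes) and TMM scaling, with quasi-likelihood tests of 4 contrasts, Benjamini-Hochberg adjustment and calls at an adjusted p under 0.05. The average of the clones weighted each clone equally. CPM are deposited counts over the TMM-scaled library size. SEs are the log2 fold change over the square root of F. The steps were tested on simulated data, with the pass conditions set at a smaller spread between replicates than in these data. That test therefore does not show how many true differences could be called here. Single clones were compared without a test, with a prior count of 2. Replicate pairs differed by 17.6 to 102 chi-square units per gene, so no library was counted as a duplicate. SDs and SEs describe the spread between these samples, limits from 3 counts cover counting error only, and no batch or date is given in the sources.

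Values are given for the 11 tested variant genes, the 12 replication-dependent genes highest in mean CPM, any member called with all 9 libraries (0) and the 5 of widest log2 range, with at most 4 genes of each other list. Other members given with values, such as HIST1H2BG, HIST1H4C, HIST1H4D, HIST2H2BE and HIST4H4, were chosen after their values were seen. The members and lists were chosen with earlier results of these data known. The labels give 5 DIP2C+/- clones, all of which were used, although the study's text describes fewer, so some may not be independent targeting events. Symbols were matched to GENCODE v44lift37 on GRCh37 through RefSeq synonyms (86 of 90). Protein sequences were not used here. The authors' alignment could split reads among near-identical histone genes, and the sharing of 100-base stretches is given beside some of them. Among other genes reported with values, the share of stretches also in another gene was 96% for HIST1H3D and 82% for HIST1H2AD. It was 24.4% for H2AFY, 22.5% for HIST1H2BK and 21.4% for HIST1H2BC. The 17 alternatives covered scaling, DESeq2 1.42.0, filters, the samples fitted and each of 9 libraries left out, and 1 of them, leaving out RKOparental-2 and H9-A4 together, was chosen after seeing the data, as were single-clone values against each parental sample alone and a DIP2C-/- fit of RKOparental-1, E3 and C10.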

Additional observations from a re-analysis of the deposited data

Results flagged for a closer look

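In the 5 DIP2C+/- clones, the gap between the highest or lowest clone and its nearest neighbour was compared with the range of the group for 35 genes and sums, by Dixon's critical value of 0.71, and chance marks about 1 in 20 such groups. HIST1H4H was marked in H9-A4, where it stood at 547 CPM against 305 to 338 CPM in the other 4 clones (gap over range 0.82). H1FOO was marked in F6-A7, where it stood at 0.873 CPM against 0.0844 to 0.161 CPM in the others (0.807). H1FOO passes the filter on low counts only through the libraries in which it is high, and its other 4 values here are at or under 3 counts, so this mark is not informative.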

How the results depend on the processing

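No paired analysis was possible because the labels number the parental samples only and name the clones. Over all genes, the calls in DIP2C-/-, DIP2C+/- and the average of the clones (1, 15 and 28) and between the knockout genotypes (0) became 297, 193, 304 and 6 with DESeq2's Wald test, and 219, 354, 410 and 1 without RKOparental-2 and H9-A4 together. In fits of only the groups compared the first, second and last were 1807, 8 and 1, the first being 2134 when RKOparental-2 was also left out, and with no filter on low counts the first was 3. With each library left out in turn they ranged from 1 to 733, 1 to 1224, 1 to 1378 and 0 to 3, the highest value of the first 3 being that without H9-A4. The calls among histone genes (0 in each contrast) ranged from 0 to 3 in DIP2C-/-, 0 to 5 in DIP2C+/-, 0 to 13 in the average and 0 to 0 between the genotypes when libraries were left out, and were 2 and 1 in DIP2C-/- and the average with DESeq2 and 15 in DIP2C-/- with only the groups compared (17 without RKOparental-2, 10 of them lower and 7 higher). The members at least 2-fold from the parental mean in either direction, 7 in E3, 14 in C10, 6 in F6-A7, 4 in H9-A4, 20 in A9-A12, 6 in G1-A5 and 12 in A6-C9, became 17, 8, 13, 8, 7, 5 and 9 without RKOparental-2 and 20, 30, 12, 16, 33, 21 and 33 without RKOparental-1.

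The ratio of the summed replication-dependent genes to parental RKO ranged from 0.551 to 0.978 in DIP2C-/- and from 0.624 to 1.11 in DIP2C+/- with a library left out, and that of the variant genes from 0.752 to 0.835 and from 0.813 to 0.903. Scaling by library size alone gave 0.797 for the variant genes in DIP2C-/- in place of 0.792. Of 471 alternative values of the 28 named genes in the average of the clones, 447 kept direction and side of the threshold, 8 passed it in addition, 7 of them without H9-A4, and 16 changed sign. Leaving out RKOparental-2 changed the sign for HIST1H1C (0.26), HIST1H2BK (1.38), HIST1H3B (0.0739), HIST1H3F (0.32), HIST1H3G (0.11), HIST1H4E (0.0683), HIST1H4H (0.00826) and HIST3H2BB (0.41). Over the libraries left out, the log2 fold changes of these genes ranged from -1.61 to 0.26, -1.38 to 1.38, -0.84 to 0.0739, -0.37 to 0.32, -0.79 to 0.11, -0.21 to 0.0683, -0.53 to 0.00826 and -0.60 to 0.41, and HIST1H3H from -0.32 to 0.79, being -0.11 without H9-A4. With RKOparental-2 and H9-A4 both left out, HIST1H1C was 0.21, HIST1H2BK 1.48, HIST1H3F 0.14 and HIST3H2BB 0.58. The cause was not tested. The groups of 2 limit every comparison, and at 3 counts (0.14 to 0.203 CPM) the germ-cell histone rows could not be compared.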
